A study of Homo sapiens with 2 samples.

Results

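The ZMYND8 locus, the gene that encodes the immunoprecipitated protein and that was knocked out in 1 of the libraries, was described from the summits called within it by chromatin immunoprecipitation and sequencing (ChIP-seq). Every summit in the hg19 span of the gene on chromosome 20 (45837859 to 45985474, minus strand, band 20q13.12), widened by 10 kb on each side, was a member. This gave 52 of the 46309 summits in the series, of which 3 of 385 came from the ZMYND8 knockout library and 49 of 45924 from the parental library. The members were chosen by the called positions of the summits, with their scores and partners already known, so every value below is a description and none is tested.

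Both libraries came from mammospheres, which are sphere cultures grown in suspension to favour stem-like cells, of MDA-MB-231, an established line from a triple-negative breast cancer. The first was from ZMYND8 knockout spheres and the second from parental spheres labelled wild type, both grown in MammoCult medium and precipitated with the same antibody against ZMYND8. Neither the position of the knockout edit in the gene nor whether the knockout line is a single clone is given in the sources used here. Lists of summits hold no transcript levels, so neither the loss of ZMYND8 nor the identity of the line could be checked from them. With 1 library per group no difference has a replicate check, and further replicates, should there be any, were not analysed here. Read depth is not given in the sources used here. All intervals are 95% intervals and cover counting error alone. Each summit carries a score from the authors' peak caller, a −log10 of a p or q value. Scores were ranked and compared only within a list, and cut-offs on them were applied to 1 list or to both.

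ZMYND8 (also named RACK7 and PRKCBP1) is a chromatin reader that joins a PHD finger, a bromodomain and a PWWP domain, through which it binds modified histones, to a MYND domain that contacts other proteins. It is known to work with the NuRD remodelling complex and with KDM5 histone demethylases at promoters and enhancers, and in breast cancer cells it has been described as a cofactor of hypoxia-inducible factors. A summit at its own gene marks DNA recovered with the antibody there. It does not show what that does to the gene's expression.

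The first promoter of the gene is shown because the second highest scoring parental summit of the locus lay beside the gene's 5′ end. The 250 bases before the start are given 5′ to 3′ on the gene's strand (minus), chr20:47356700-47356949 of GRCh38.p14, from RefSeq. Capitals mark the CCAAT motif.
ZMYND8 promoter: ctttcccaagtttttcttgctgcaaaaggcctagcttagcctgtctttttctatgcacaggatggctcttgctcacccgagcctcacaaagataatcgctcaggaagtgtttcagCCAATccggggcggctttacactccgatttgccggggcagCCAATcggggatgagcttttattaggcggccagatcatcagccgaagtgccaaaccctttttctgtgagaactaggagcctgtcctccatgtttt
The stretch was 50.8% G or C. It held CCAAT, the motif bound by the factor NF-Y, at 2 places on the gene's strand, beginning 135 and 95 bp upstream of the start. Of 35116 RefSeq promoter stretches of the same length, 32.0% held CCAAT on either strand and 9.53% held it at least 2 times. The GC box GGGCGG occurred once, beginning 127 bp upstream, against a share of 42.6% of promoters with at least 1. No match on either strand was found for TATAAA (10.7% of promoters), ACGTG, the core of the hypoxia response element (18.5%), CACGTG, the E-box, which contains that core (6.34%), or TGACTCA, an AP-1 site (4.203%). RefSeq lists another start 263 bp downstream, and the 250 bases before it held none of the 6 motifs. The summits are on hg19 and this stretch is on GRCh38.p14, so the summits were not placed on these letters.

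At the 5′ end the knockout list held no summit within 1 kb, whereas the parental list held 2. The parental summit nearest the end lay 150 bp downstream of it, at 45985324, with a score of 10.9 (rank 2145 of 45924). The second lay 309 bp upstream, at 45985783, with a score of 34.7 (rank 58), and the nearest knockout summit was 2791 bp away. Within 5 kb of the 5′ end there was 1 knockout summit, against 14 parental summits, 6 of them upstream and 8 downstream. These counts are to be read against lists of 385 and 45924 summits, in which 98.8% of all parental summits had no knockout summit within 1 kb.

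Farther upstream, the parental summits at 45988728 and 45989379 had the same score of 10.9 as the one at 45985324. Only 7 summits of the whole parental list carry that value, and 3 of them were at this locus. The 3 parental summits beyond these, up to 4969 bp upstream, scored from 2.14 to 3.57. From there the next parental summit lay 13513 bp upstream of the gene, outside the widened span, with a score of 2.13.

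The highest score of the locus did not lie at the 5′ end but inside the gene. The parental summit at 45945731, 39743 bp downstream of the 5′ end and 26.9% of the way along the gene, scored 41.2 (rank 36). Beside it stood the summits at 45946556 (score 26.7, rank 114) and 45948021 (score 23.8, rank 165). These 3 neighbours followed each other along the gene, with no other parental summit between them, and each scored above 20. A separate pair, at 45963799 (score 18.8, rank 376) and 45962113 (score 15.4, rank 706), lay 21675 and 23361 bp downstream. The tenth highest summit of the locus lay closer to the start, 2524 bp downstream at 45982950, with a score of 9.01. The other 39 parental summits scored from 1.48 to 8.29, with a median of 4.203.

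**Figure D1:**
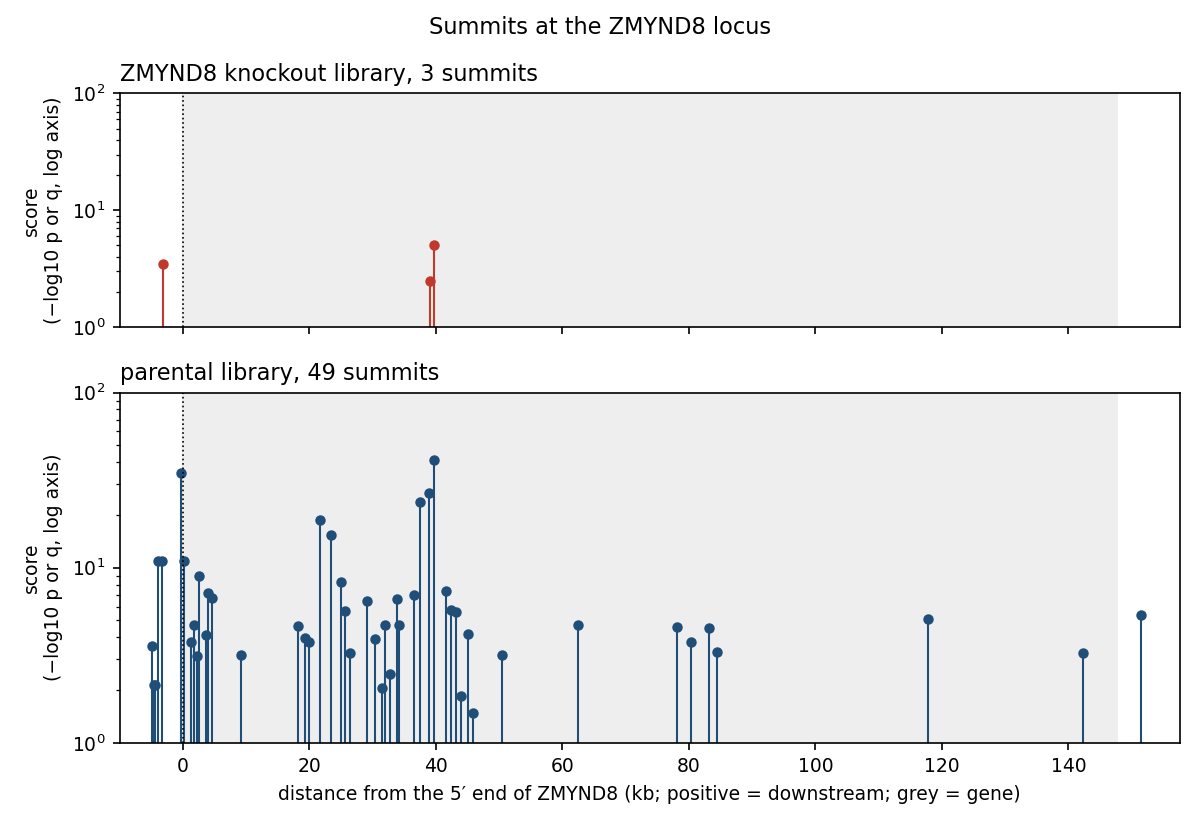
Summits at the ZMYND8 locus in the knockout library (upper panel, 3 summits) and the parental library (lower panel, 49 summits), by distance from the 5′ end in kb (positive is downstream, grey is the gene) and by the authors' score on a log axis. The parental summits crowd into the first 50.4 kb, with the highest scores 309 bp upstream (34.7) and 39743 bp downstream (41.2), and the knockout summits lie beside parental ones.

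Along the gene the parental summits were crowded towards the 5′ side. Of the 42 parental summits inside the gene, 18 (42.9%, exact binomial interval 27.7 to 59.0) lay in its first 29.5 kb, which is 20% of its length. The stretch from there to 59.0 kb held 17, the one to 88.6 kb held 5, and the next stretches, to 118.1 kb and to the 3′ end, held 1 each. Both knockout summits inside the gene lay between 29.5 and 59.0 kb. Beyond 60 kb from the 5′ end there were 8 parental summits and no knockout summit, and those 8 scored from 3.27 to 5.398. One of them, at 45833955, lay 3904 bp past the 3′ end and was the only one in the downstream flank.

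Most parental members fell into 2 runs, defined after the positions had been seen as chains of summits with gaps of at most 5 kb. The run around the 5′ end reached from 4.97 kb upstream to 9.17 kb downstream and held 15 summits with a median score of 4.71 and a median gap of 519 bp. The intragenic run reached from 18.2 to 50.4 kb downstream and held 26 summits with a median score of 5.16 and a median gap of 987 bp. Together they held 41 of the 49 members and all 9 members with a score of at least 10. Only 27 of the 23709 runs of the parental list, single summits included, held at least as many summits as the intragenic run, itself counted, and 118 held at least as many as the 5′ run. The division depends on the gap. At 10 kb both joined into a chain of 42 summits that began 13.5 kb upstream, and at 2 kb they split into chains of 5, 9, 8, 7 and 10, with 2 single summits left over. A smaller run of 4 summits, 78.1 to 84.4 kb downstream, scored no higher than 4.56.

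In RefSeq's table of GRCh38.p14 the ZMYND8 span contains the long noncoding RNA genes LOC100131496 and LOC101927377, and its protein-coding neighbours are NCOA3, a nuclear receptor coactivator, beyond the 5′ end and EYA2, a transcriptional coactivator and phosphatase, beyond the 3′ end. Their hg19 positions were not used here. No summit could be assigned to them, to an exon or to an intron.

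The knockout library had 3 summits at the locus, each with a parental summit within 200 bp. Over the whole knockout list 75.6% of summits had such a partner. The highest was at 45945713, with a knockout score of 5.003 (rank 169 of 385), and it lay 18 bp from the highest parental summit of the locus. The next was at 45988574, upstream of the gene by 3100 bp, with a knockout score of 3.49 (rank 272), and its nearest parental summit lay 154 bp away at 45988728. The last was at 45946447, with a knockout score of 2.48 (rank 347), 109 bp from the parental summit that scored 26.7. A summit is a place where reads mapped, so the knockout library held reads of this part of the gene. Of these 3 summits, 1 stood above the knockout list's median score of 4.65 and 2 below it. The 2 inside the gene were 734 bp apart.

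Seen from the parental side, 3 of the 49 members (6.12%, 1.28 to 16.9) had a knockout summit within 200 bp, against 0.636% of the whole parental list. No knockout summit lay within 1 kb of 45 members (91.8%, 80.4 to 97.7), against 98.8% of the whole list. A larger share of locus members than of the whole parental list scored at least 10 (18.4% against 6.27%), although 27 of the 49 scored under 5. High parental summits have partners more often. The shares were therefore also taken within classes of score, chosen after the data were seen. Among summits with a score of at least 10, it was 3 of 9 at the locus (33.3%, 7.49 to 70.1) and 172 of 2871 in the rest of the list (5.99%, 5.15 to 6.92). Below a score of 10 the locus had no member with a partner, out of 13 with scores of 5 or more and 27 under 5. In the rest of the list 71 of 10726 (0.662%) and 46 of 32278 (0.143%) had one. The difference thus rests on 3 summits, of which 2 have knockout partners only 734 bp apart and may not be independent. Within the class of at least 10 the scores are not matched either. There, 4 of the 9 members scored 20 or more, against 293 of the 2871 others.

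Members with similarly high scores differed in whether they had a partner. Of the 4 members with a score of at least 20, those at 45945731 and 45946556 had a knockout summit within 200 bp, and those at 45985783 and 45948021 had none within 1 kb. For the last of these the nearest knockout summit was 1574 bp away. In the rest of the list 83 of 293 summits in that class (28.3%, 23.2 to 33.9) had a partner.

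**Figure D2:**
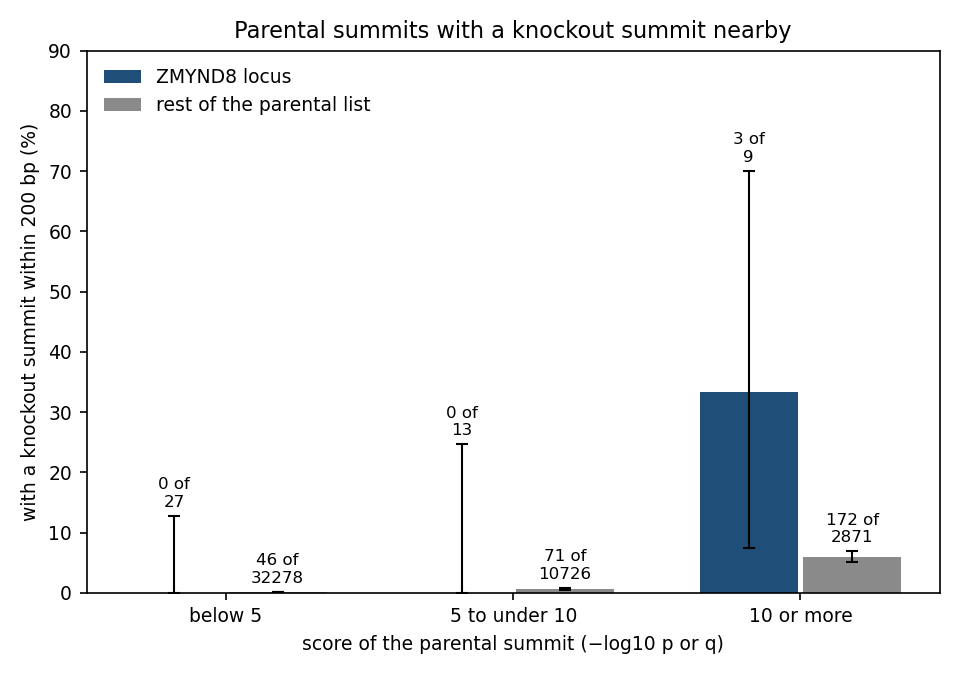
Share of parental summits with a knockout summit within 200 bp (%), by class of parental score, for the ZMYND8 locus (blue) and the rest of the parental list (grey), with counts above and 95% exact binomial intervals as bars. At the locus all 3 such summits score 10 or more, and the interval from 7.49% to 70.1% is wide because that class has 9 members.

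The scores of the locus stood above those of the rest of its list. Of the 49 members, 9 (18.4%, 8.76 to 32.0) had a score of at least 10, against 6.27% of the whole parental list. The highest scoring 25%, taken as scores of 5.68 or more with ties included, came to 26.1% of the list, and 19 members (38.8%, 25.2 to 53.8) belonged to it, an interval that includes the list's own share. All 19 lay in the 2 large runs. The median score was 4.71 at the locus and 3.79 over the whole parental list.

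**Figure D3:**
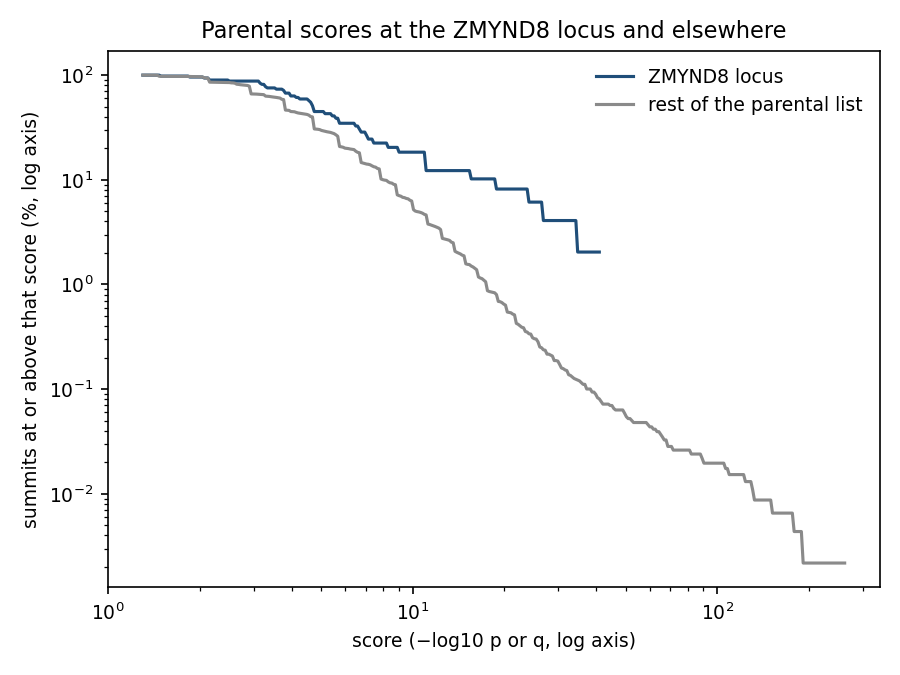
Share of parental summits at or above each score (%, both axes log), for the 49 summits of the ZMYND8 locus (blue) and all others (grey). The lines run close together at low scores and part above them, and 18.4% of the locus against 6.26% of the others reach a score of 10.

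Parental summits were denser at the locus than on the rest of chromosome 20 or in the stretches beside it. Its 167.6 kb held 292.3 parental summits per Mb, against 29.1 in the rest of chromosome 20 (ratio 10.03, 7.39 to 13.3) and 14.8 in the rest of the list (ratio 19.7, 14.6 to 26.1). In the 1 Mb on each side there were 19.0 per Mb, 38 summits in all, of which 8 fell in a single stretch from 30 to 40 kb upstream of the gene. The median gap between neighbouring parental summits was 1049.5 bp at the locus, against 5726 bp over the whole list. Among 18459 consecutive windows of the same length laid from the start of each chromosome, 28 (0.152%) held 49 or more parental summits, and the median window held 0. On chromosome 20, 4 of 376 such windows did, and the fullest held 83. Among these 4 was the window that spans both large runs of this locus. It held the 41 members of those runs and reached 49 only with summits upstream of the widened span. The others of the 4 lay elsewhere. Other loci with as many summits therefore exist, on this chromosome too. The intervals treat summits as independent, which summits in a run may not be. Densities and windows used whole chromosome lengths, and stretches to which reads cannot map were not removed. The windows were fixed in place, whereas the span of the locus was laid around the gene.

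The knockout list, although short, also had more than 1 of its summits here. The locus held 3 of the 41 knockout summits on chromosome 20 (7.32%, 1.54 to 19.9), against 49 of the 1881 parental ones (2.605%, 1.93 to 3.43), intervals that overlap. As a share of the whole list it held 0.779% of the knockout summits (0.161 to 2.26) and 0.107% of the parental ones (0.0789 to 0.141). These intervals do not overlap, but they treat summits as independent. Chromosome 20 as a whole also held a larger share of the knockout list (41 of 385) than of the parental list (1881 of 45924). A contrast of this direction was therefore not particular to the locus. The knockout share of the locus rests on 3 summits, 2 of them 734 bp apart, and whether the shares differ was not tested. The density of knockout summits at the locus was 17.9 per Mb, against 0.605 in the rest of chromosome 20 (ratio 29.6, 5.85 to 93.3) and 0.123 in the rest of the list (ratio 145.0, 29.8 to 427.1), values that rest on 3 summits. In the 1 Mb on each side the knockout list held 1 summit, at 45752848, 85011 bp past the 3′ end, with a score of 4.01. It lay 20 bp from a parental summit with a score of 20.2, which was also the first parental summit outside the span on that side.

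**Figure D4:**
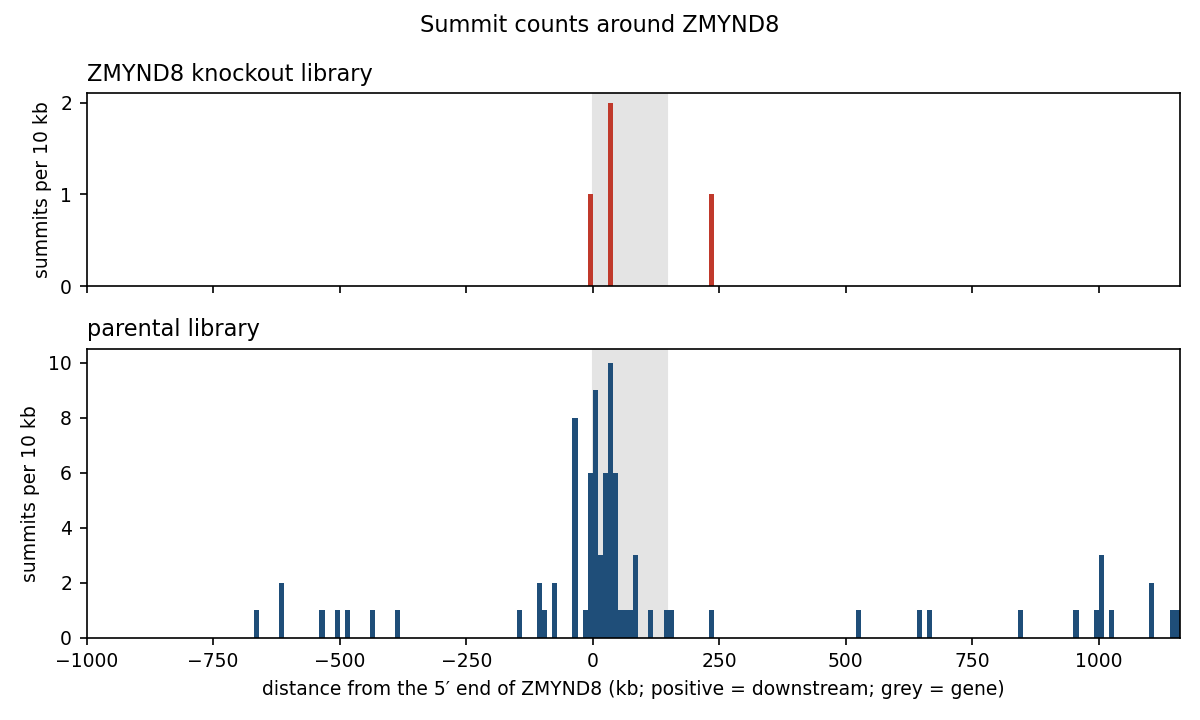
Number of summits per 10 kb around ZMYND8 in the knockout library (upper panel) and the parental library (lower panel), by distance from the 5′ end in kb (positive is downstream, grey is the gene). The parental counts peak at 10 per 10 kb inside the gene, with 8 in a stretch 30 to 40 kb upstream, and the knockout library has 3 summits at the locus and 1 beyond its 3′ end.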

How the data were processed

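The deposited files gave the position and score of every summit, separately for each library. In the lists as the authors deposited them the score is a −log10 of a p or q value; the sources used here do not say which. MACS2 2.0.10, Bowtie2 2.2.3, Picard 1.127, FastQC 0.11.2 and the build hg19 are listed, with no roles or settings, per the submitters' processing notes. Control library, calling threshold and read depth were not given in the sources used here, and a shallower library can yield a shorter list without any change in binding.

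Positions are 1-based hg19 coordinates, and the gene span was that of the rule that defines the locus. Summits were partners within 200 bp. Ranks count summits with a higher score, plus 1. The exact Poisson intervals were 36.3 to 64.8 for the 49 parental members and 0.619 to 8.77 for the 3 knockout ones. Other counts are given without an interval. Intervals of shares are Clopper-Pearson, and those of ratios of densities are exact conditional binomial. Individually described were every knockout summit, its nearest parental summit, the 10 highest parental summits and the one nearest the 5′ end; others are named as edges of the span or of a run, or for sharing a score. The members and lists were chosen with earlier results of these data known. Chromosome lengths came from GenomeInfoDb 1.38.1, the band from circlize 0.4.16, promoters and gene names from RefSeq (GRCh38.p14). No hg19 annotation was used, so a list of ZMYND8 partner genes was not analysed here. Partner counting, density ratios and merging were tested on simulated lists. Software was Python 3.11.15 with scipy 1.17.1, numpy 2.4.6, pandas 2.3.3 and, for figures, matplotlib 3.10.9.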

Additional observations from a re-analysis of the deposited data

How the results depend on the processing

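No paired analysis was possible because only 1 library of each genotype was analysed here. Among 39 alternatives for the 7 main values, 24 held (a count within 1.5 times, a share or ratio within the 95% interval reported for it) and 15 did not. The intervals are wide, so holding is a weak statement: with partners within 100 bp, counted as held, the share of parental members with a partner was 2.04% (1 of 49), against 6.12% (3 of 49) within 200 bp. With only scores of at least 5 or 10 in both lists, the locus had 1 and 0 knockout summits and 22 and 9 parental summits. At 10 the density ratio against chromosome 20 was 19.2, 0% of parental members had a partner and 100% had none within 1 kb, since no knockout summit at the locus reaches 10. With that minimum on the parental list alone, chosen after seeing the data, these shares were 33.3% and 55.6% (5 of 9, 21.2 to 86.3). In the rest of the parental list they were 5.99% and 91.7%. The density ratio was 19.7 against the whole list and 15.4 against the 1 Mb on each side. The highest 10% and 50% of the list took in 22.4% (11.8 to 36.6) and 71.4% (56.7 to 83.4) of members. In the rest of the list these shares were 9.99% and 58.4%, ties included. The first 10% and 50% of the gene's length took in 21.4% and 85.7% of the summits inside it. That these shares move with the cut-off is by construction. A minimum score can only lower a count of summits. For the other settings the cause was not tested. Unknown depth limits every comparison of the lists, and a shared cut-off on the score need not mean the same in both.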
